A study of Mus musculus with 24 samples.

Results

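C-type lectin receptor genes were followed across 9 cell groups sorted from mouse gonadal fat. Members were genes whose symbol begins with Clec and a digit, Cd209a to Cd209g, and Mgl2, Mrc2 and Cd302, each read from a probe row annotated to 1 gene symbol. Of 22180 genes with such a row, 40 were members. Testing required a value above the array's own median on 2 or more arrays, which 36 members had. The other 4, Clec12b, Clec2e, Clec2h and Clec3a, lay below the median on every array and are not described further. Values are deposited log2 expression values, so a difference of 1 is a doubling, and levels are compared between groups only, never between genes.

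All mice were male C57Bl/6. They were fed normal diet (ND, lean), a high fat diet with 60% fat (HFD, obese), or were formerly obese (WL), with HFD for 12 weeks and then 8 weeks after its withdrawal. Live adipose tissue macrophages (ATM), split by the integrin CD11c, dendritic cells (ATDC) and preadipocytes (PA) were sorted by flow cytometry from collagenase-digested tissue. The groups were ND CD11c- ATM, ND ATDC and WL CD11c- ATM with 2 arrays each, and ND PA, HFD CD11c+ ATM, HFD CD11c- ATM, HFD ATDC, HFD PA and WL CD11c+ ATM with 3 arrays each. Each ND macrophage or dendritic cell sample was 1 of 2 pools of cells from 4 mice, and HFD and preadipocyte samples were pools of 3 to 4 mice. CD11c+ macrophages of ND mice were not sorted because they were too few. The sources used here do not give ages, the pooling of WL samples or the other sorting markers. All p-values below therefore rest on the spread between pools and arrays, which may be partly technical.

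C-type lectin receptors are surface proteins of myeloid cells that bind sugars, lipids or proteins on microbes and on the body's own cells. Some, such as Clec4e (Mincle), Clec4d, Clec4n (Dectin-2) and Clec7a (Dectin-1), signal through an activating motif, their own or that of the adaptor Fcer1g, and the kinase Syk. The Dcir family includes receptors with an inhibitory motif, and the Cd209 (DC-SIGN) family, Mgl2 and Clec10a are uptake receptors often used to mark resident or alternatively activated macrophages. In fat, Mincle is known as a sensor of dying cells on macrophages that gather around dead adipocytes.

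The sorted groups were checked against marker genes. Adgre1, a macrophage marker, lay between 9.43 and 10.7 on all macrophage arrays. It lay between 8.15 and 9.69 on the ATDC arrays, which overlapped that range, and reached 8.55 in HFD PA. Flt3, a dendritic cell receptor, lay between 8.03 and 8.57 on the ATDC arrays and at 4.88 or lower elsewhere. Pdgfra, a preadipocyte marker, lay between 9.55 and 10.2 on the PA arrays, but reached 8.16 in HFD CD11c- ATM and 8.57 in WL CD11c- ATM. Itgax, which encodes CD11c, had a mean of 2.89 in ND CD11c- ATM, 6.13 in HFD CD11c- ATM and 6.52 in WL CD11c- ATM, and of 8.53 and 8.82 in HFD and WL CD11c+ ATM. By correlation over tested genes, all 3 HFD CD11c- ATM arrays, HFD ATDC replicate 2, WL CD11c+ ATM replicates 2 and 3 and WL CD11c- ATM replicate 2 were closer to another group than to their own. WL arrays had a mean r of 0.88 to 0.92 with their own group, against 0.94 to 0.98 for the other arrays. The spread, which the fit shares over all groups, may therefore be too small for the WL groups. In sorted bulk samples, fewer cells of a type and less RNA per cell cannot be told apart.

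Members fell into a few patterns of level. Of the 36 tested, 11 had their highest group mean in lean CD11c- macrophages: Cd209a, Cd209b, Cd209d, Cd209e, Cd209g, Clec10a, Mgl2, Clec2i, Clec4a1, Clec4a3 and Clec5a. HFD CD11c+ ATM held the highest mean of 5, Clec12a, Clec1b, Clec4a2, Clec4b1 and Clec7a, and WL macrophages of another 5, Clec2l, Clec4d, Clec2m, Clec4e and Clec4n. Dendritic cells held 7, among them Clec4g and Clec4b2, and preadipocytes 8, among them Mrc2, Clec3b and Clec11a. Several of these top ranks were close or low. The highest group mean was 2.97 for Clec2l and 3.12 for Clec1b, near the array medians. The share of all genes highest in each group was not counted, so the counts only describe the members. Clec4a3, a Dcir gene, had means between 9.82 and 10.5 in the macrophage and dendritic cell groups, and Clec16a, which has no classical lectin domain and is known from autophagy, ranged only from 4.43 to 5.46 over the 24 arrays.

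**Figure D1:**
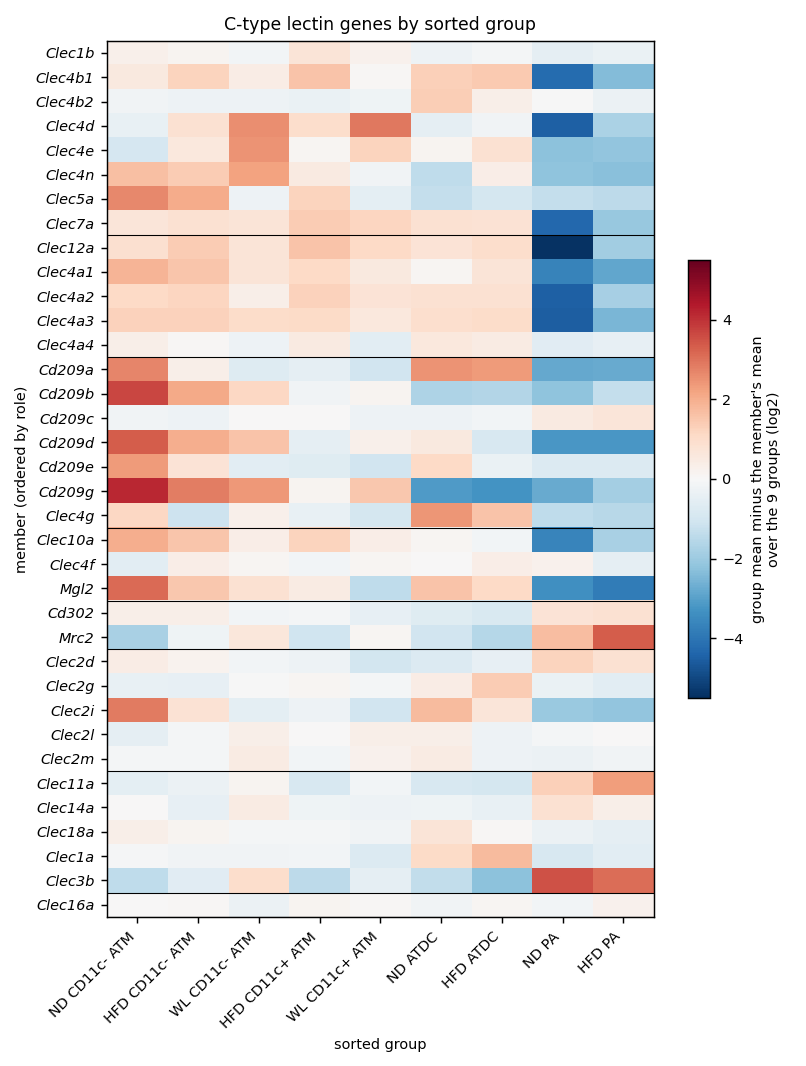
Group means of the 36 tested C-type lectin genes (rows, ordered by role, with lines between roles) in the 9 sorted groups (columns), each minus the member's mean over the 9 groups, in log2 units. Cd209a, Cd209b, Cd209d, Cd209e, Cd209g, Clec5a, Mgl2 and Clec2i are highest in lean CD11c- macrophages, Clec4d and Clec4e in formerly obese macrophages, and Mrc2 and Clec3b in preadipocytes. For Cd209a, Cd209e and Clec5a the arrays of lean CD11c- macrophages overlap those of the next group. Cd209a means are 8.76 there, 8.54 in ND ATDC and 8.42 in HFD ATDC.

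The activating receptors Clec4e and Clec4d were highest in macrophages of formerly obese mice. They are neighbours on chromosome 6, on opposite strands, and their products are known to form a receptor complex. Clec4e read 3.99 and 3.67 in lean CD11c- ATM, 5.55, 4.73 and 5.81 in obese ones, and 7.29 and 7.20 in formerly obese ones. The 3 groups did not overlap. In CD11c+ ATM it read 4.96, 5.15 and 4.56 with HFD and 6.10, 5.81 and 6.08 after weight loss, again without overlap. Dendritic cells read 4.87 and 4.98 (ND) and 5.84, 5.77 and 5.20 (HFD), and the 6 preadipocyte arrays 2.35 to 2.69, under their array medians. Clec4d, whose product is also called MCL, read 5.81 and 5.60 in lean CD11c- ATM, 7.24, 6.29 and 7.33 in obese ones and 8.35 and 8.98 in formerly obese ones. In CD11c+ ATM it read 7.54, 6.37 and 7.33 with HFD and 8.38, 8.91 and 9.81 after weight loss, groups that did not overlap, but the difference of 1.95 ± 0.50 (SE of the fit) missed the threshold (adjusted p = 0.0601). Clec4n did not share this order. It read 7.15 and 5.97 in lean, 6.43, 6.30 and 6.22 in obese and 7.52 and 6.74 in formerly obese CD11c- ATM, so the lean range held all 3 obese values and overlapped the formerly obese ones. Lean dendritic cells read 3.84 and 3.20.

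The 250 bases before the start sites of Clec4d and Clec4e are shown because this neighbouring pair had its 2 highest group means in the formerly obese groups. They come from RefSeq, build GRCm38.p6, at chr6:123261857-123262106 on the plus strand for Clec4d and chr6:123289872-123290121 on the minus strand for Clec4e. The following motifs were searched on both strands and are capitalised where found: PU.1 (AGGAAGT), C/EBP (TTGCNNAA), AP-1 (TGANTCA), a MAF site (TGCTGAC) and the ETS-IRF composite element.
Clec4d: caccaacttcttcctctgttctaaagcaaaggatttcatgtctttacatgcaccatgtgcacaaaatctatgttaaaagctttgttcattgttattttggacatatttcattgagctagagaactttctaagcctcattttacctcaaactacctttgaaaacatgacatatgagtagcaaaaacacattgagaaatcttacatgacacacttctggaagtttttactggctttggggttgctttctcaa
Clec4e: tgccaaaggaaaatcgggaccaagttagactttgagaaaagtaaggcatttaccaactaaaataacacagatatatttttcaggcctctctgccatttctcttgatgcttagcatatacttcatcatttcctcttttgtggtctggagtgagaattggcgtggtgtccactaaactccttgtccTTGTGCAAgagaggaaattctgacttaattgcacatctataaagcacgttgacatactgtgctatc
The Clec4e window held a C/EBP match at -66 to -59 from the start, and the Clec4d window held none of the motifs. C/EBP matches were present in 9.56% of 32851 RefSeq windows of this length. A match is a description of letters, not a binding site.

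**Figure D2:**
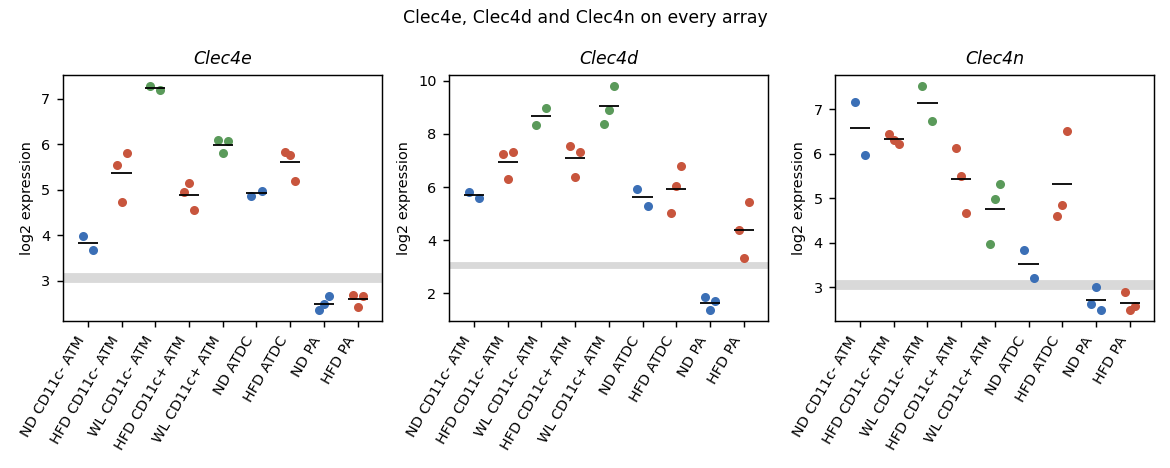
Log2 expression of Clec4e, Clec4d and Clec4n on each array (dots, blue ND, red HFD, green WL) with group means (black lines) for the 9 groups; the grey band spans the array medians. Clec4e means in CD11c- ATM were 3.83 (ND), 5.36 (HFD) and 7.25 (WL), and its preadipocyte values lie under the band.

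Formerly obese against lean CD11c- macrophages gave the most member calls within one cell type. Of 36 tested, 9 passed an adjusted p of 0.05 in limma with Benjamini-Hochberg adjustment over 15496 genes, 4 higher and 5 lower. Of all tested genes 6.18% passed, 3.23% higher and 2.95% lower. The higher members were Clec4e (3.41 ± 0.31, adjusted p = 1.35e-06, 10.7-fold), Clec4d (2.96 ± 0.62, adjusted p = 0.00679), Mrc2 (2.41 ± 0.54, adjusted p = 0.0112) and Clec3b (2.35 ± 0.64, adjusted p = 0.0338). The lower ones were 3 Cd209 genes, Clec2i and Clec5a. Cd209a, a receptor of the DC-SIGN family also found on monocyte-derived dendritic cells, read 8.84 and 8.68 in lean and 5.31 and 5.45 in formerly obese cells (-3.38 ± 0.73, adjusted p = 0.00836). Clec2i, a ligand of the NK cell receptor family NKR-P1, read 7.64 and 7.83 against 4.36 and 4.28 (-3.42 ± 0.74, adjusted p = 0.00841). On the rows used for both genes the 2 groups lay far apart, with little spread between the 2 arrays of each. The other Cd209a row did not fall, with means of 5.51 in lean and 5.80 in formerly obese cells. Clec5a, a receptor that signals through the adaptor Tyrobp, read 6.58 and 5.64 against 3.54 and 2.83 (-2.93 ± 0.61, adjusted p = 0.00645). Cd209b (SIGNR1, a receptor for bacterial sugars) read 8.88 and 8.85 against 6.35 and 6.27 (-2.56 ± 0.55, adjusted p = 0.00810). Cd209e read 5.62 and 4.22 against 2.49 and 1.48, which lie under the array medians, so it fell by at least 1.79 log2 units (adjusted p = 0.0110). The median difference of the tested members was -0.29, against -0.08 over all tested genes.

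Only Clec4e of these 9 passed with any 1 of the 4 arrays left out (highest adjusted p 0.000121). Without ND replicate 1 or 2, 2 and 3 members passed. Cd209a, Cd209b and Clec2i missed the threshold without either ND array (up to 0.0618, 0.0565 and 0.0675). Clec4d missed it without ND replicate 2 or WL replicate 2 (up to 0.0603), and Clec5a and Cd209e without ND replicate 1 or WL replicate 2 (up to 0.0889 and 0.146). Mrc2 and Clec3b missed it without either ND array or WL replicate 1 (up to 0.0823 and 0.213). Clec3b, Clec5a and Cd209e were also lost in a fit of these 4 arrays alone, Clec3b with array weights, and Cd209a when its 2 probe rows were averaged.

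Mrc2 (Endo180, which takes up collagen) and Clec3b (tetranectin, which binds plasminogen) were mainly preadipocyte genes. Mrc2 read 7.12, 6.41 and 6.16 in ND PA, 8.49, 8.03 and 8.06 in HFD PA, and 3.02 and 3.12 in lean CD11c- ATM. In WL CD11c- ATM it read 5.76 and 5.20, and in HFD CD11c- ATM 4.16, 3.67 and 6.00. Clec3b read 9.57, 8.73 and 8.50 in ND PA, 3.82 and 4.25 in lean CD11c- ATM, and 6.89 and 5.89 in WL CD11c- ATM. The preadipocyte marker list moved with both: 11 of its 12 tested genes were higher in WL than in ND CD11c- ATM, with summed levels of 13.1 to 13.4 against 10.5 to 11.2, and of 12.0 to 13.6 in HFD CD11c- ATM. HFD replicate 3, highest for Mrc2, had the highest of these sums. In the same comparison 9 of 9 mast cell markers were higher (12.1 to 12.5 against 5.75 to 5.80). So were 2 of 10 NK cell (9.74 to 9.89 against 7.19 to 7.73) and 4 of 10 endothelial markers (9.02 to 9.90 against 7.53 to 7.57). Also higher were 3 of 9 tested monocyte (10.92 to 10.93 against 9.83 to 10.25) and 2 of 6 tested neutrophil markers (9.13 to 10.1 against 7.72 to 7.87). The neutrophil genes Ly6g, Camp and Ltf lay under the median on every array, and Retnlg and Mmp8 on the ND arrays only. The macrophage list summed to 13.2 to 13.4 against 13.98 or more, and 1 of 12 markers was lower. The dissociation stress list summed to 13.50 to 13.57 against 12.98 to 13.07, with 1 of 12 genes higher and 1 lower. The part of these lists in the 9 member calls was not tested.

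**Figure D3:**
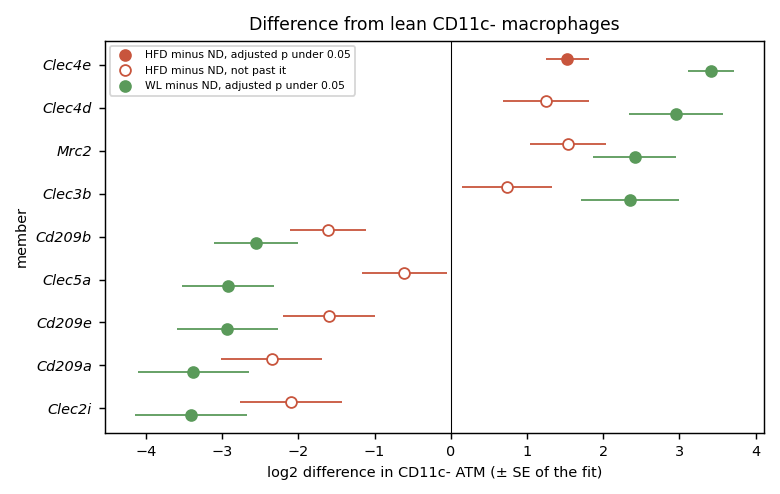
Log2 differences (± SE of the fit) of the 9 members called in formerly obese (WL, green) against lean (ND) CD11c- ATM, with the obese (HFD, red) against lean difference of the same member; filled points have an adjusted p under 0.05. Both contrasts share the 2 ND arrays, and Clec4e alone is filled in both.

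Formerly obese macrophages were also compared with obese ones. The sources used here do not give ages, so weight loss, time and age cannot be told apart. In CD11c- ATM, 2 of 36 passed, with 2.96% of all tested genes called (1.17% higher, 1.79% lower). There Clec4e was higher by 1.88 ± 0.28 (adjusted p = 0.00110) and Clec5a fell by 2.32 ± 0.55 (adjusted p = 0.0279), from 5.09, 5.75 and 5.65. The Clec4e call held with any 1 of 5 arrays left out (up to 0.00919). Clec5a missed the threshold without HFD replicate 2 or 3 or either WL array (up to 0.143), with array weights and without the 3 arrays whose marker lists stood apart, HFD CD11c- ATM replicate 3, HFD ATDC replicate 1 and ND PA replicate 1 (0.0684), and neither gene passed in a fit of these 5 arrays alone. In CD11c+ ATM only Clec4e passed, higher by 1.10 ± 0.25 (adjusted p = 0.0368), with 1.33% of all genes called (0.632% higher, 0.697% lower). It passed only when WL replicate 3 was the array left out, with 3 members called, and missed the threshold without any other of the 6 arrays (up to 0.171). Clec5a read 4.71, 5.57 and 3.79 in HFD and 2.16, 2.33 and 4.26 in WL CD11c+ ATM, groups that overlapped (adjusted p = 0.0731). After weight loss 7 of 9 mast cell and 2 of 10 NK cell markers were higher in CD11c- ATM, and 2 of 12 preadipocyte and 2 of 6 tested neutrophil markers in CD11c+ ATM, and their part was not tested. The change with weight loss did not differ detectably between the subsets: 0 of 36 members passed the interaction, with 0.161% of all genes called.

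Between obese and lean CD11c- ATM 2 members were called, with 0.613% of all tested genes called (0.439% higher, 0.174% lower). There Clec4e was higher by 1.53 ± 0.28 (adjusted p = 0.0140). Clec4g (LSECtin) fell from 4.59 and 5.52 to 2.23, 3.06 and 3.03, all 3 under the array medians, by at least 1.98 log2 units (adjusted p = 0.0201). Clec4e missed the threshold without either ND array or HFD replicate 1 or 3 (up to 0.182), and Clec4g without ND replicate 2 or HFD replicate 1 or 3 (up to 0.289). A fit of these 5 arrays alone called 0 members, leaving out HFD replicate 2 called 4, and counts with another array left out were 0 or 1. The calls also missed the threshold without the 3 arrays whose marker lists stood apart, at 0.0901 for Clec4e and 0.0781 for Clec4g. For Cd209b, Cd209d and Mgl2, HFD replicate 2 was the obese array nearest the lean ones. Cd209b read 6.81, 7.77 and 7.20 with HFD against 8.88 and 8.85, Cd209d 8.39, 10.06 and 8.87 against 10.32 and 10.56, and Mgl2 7.28, 9.31 and 8.01 against 9.80 and 9.87. None of these differences passed (Cd209b -1.61 ± 0.50, adjusted p = 0.201). The preadipocyte list was higher in 4 of 12 genes here, and its part was not tested.

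In dendritic cells 0 of 36 members passed, with 0.258% of all genes called. Cd209a stayed at 8.69 and 8.39 with ND and 8.76, 8.63 and 7.86 with HFD. Clec4n read 3.84 and 3.20 against 4.60, 4.84 and 6.50, a difference of 1.79 ± 0.52 (adjusted p = 0.197). Clec1a, a receptor for fungal melanin, had 1 high HFD value, 6.91, beside 3.82 and 4.07. The diet effect in dendritic cells minus that in CD11c- ATM passed for 0 members, with 0.0581% of all genes called.

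Preadipocytes of obese mice gave 4 member calls, all higher, with 2.59% of all tested genes called (1.69% higher, 0.897% lower). All 4 are receptors of myeloid cells. Clec12a (MICL, an inhibitory receptor for uric acid crystals) read 4.79, 2.63 and 2.49 with ND and 7.02, 5.20 and 8.17 with HFD, 3.49 ± 0.56 higher (adjusted p = 0.00108). Clec4d read 1.86, 1.37 and 1.70, all under the array medians, against 4.38, 3.34 and 5.43, at least 1.34 log2 units higher (adjusted p = 0.00412). Clec4a2, a Dcir gene, read 3.73, 1.15 and 1.29 against 4.05, 4.57 and 5.57 (2.68 ± 0.51, adjusted p = 0.00549). Clec7a, the receptor for fungal glucans, read 4.94, 2.75 and 2.99 against 5.55, 4.84 and 6.98 (2.23 ± 0.52, adjusted p = 0.0225). Clec7a alone of the 4 had overlapping groups, through ND replicate 1. That replicate was the only 1 of 3 lean arrays above its median for Clec12a, Clec4a2 and Clec7a, so their differences are against a mostly unmeasured lean group. HFD replicate 3 was the highest array for each of the 4, and ND replicate 1 the highest lean array.

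The macrophage marker list moved with these 4 genes, with 7 of 12 markers higher and none lower. Its summed level was 9.30, 8.45 and 7.92 on the ND PA arrays and 10.5, 9.67 and 11.8 on the HFD PA arrays, with 11 or 12 of its 12 genes above the median on every array, and every macrophage array had a sum of at least 13.03. Cd68 read up to 7.12 in ND PA and 10.2 in HFD PA. The part of macrophage RNA in the member differences was not tested. Clec4e read 2.69, 2.43 and 2.66 in HFD PA, under the array medians, so whether it moved with the list cannot be told. In HFD CD11c- ATM it read 5.55, 4.73 and 5.81. Mrc2 differed by 1.63 ± 0.44 and missed the threshold (adjusted p = 0.0567). Clec12a and Clec4d passed with any 1 of the 6 arrays left out. Clec4a2 missed without HFD replicate 3 (0.0503), and Clec7a without ND replicate 2 or 3 or HFD replicate 1 or 3 (up to 0.169). The count rose to 8 when ND replicate 1 was left out and to 7 for HFD replicate 2, and fell to 2 for HFD replicate 3. A fit of these 6 arrays alone also called 2 and lost Clec12a, Clec4a2 and Clec7a. The diet effect in PA minus that in CD11c- ATM passed for 0 members, with 0.277% of all genes called. It passed for 5 without ND PA replicate 1, and for 1 without HFD CD11c- ATM replicate 2 or HFD PA replicate 2.

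**Figure D4:**
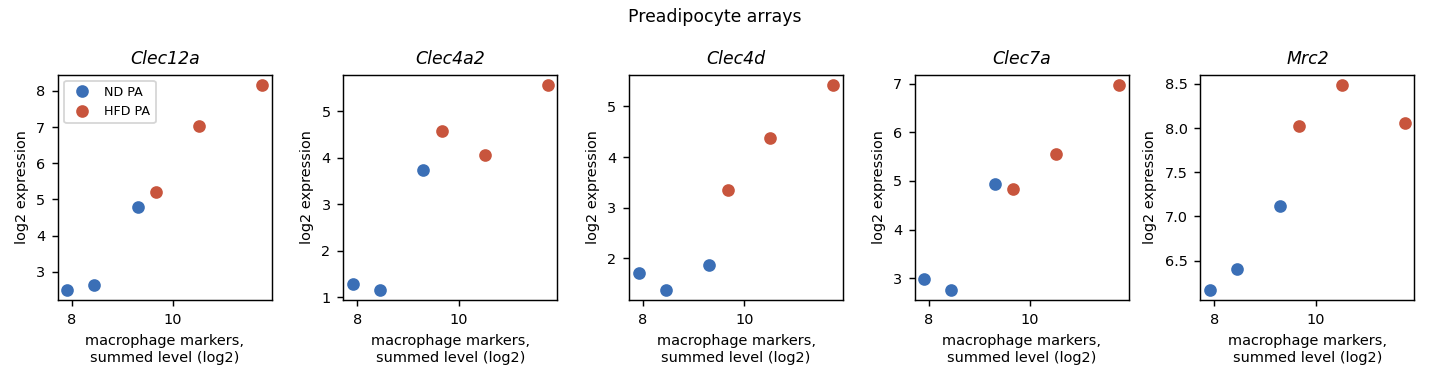
Log2 expression of Clec12a, Clec4a2, Clec4d, Clec7a and Mrc2 (vertical axes) against the summed level of 12 macrophage markers (horizontal axes, log2) on the 3 ND (blue) and 3 HFD (red) preadipocyte arrays. HFD replicate 3, with a summed level of 11.8, is highest for the first 4 genes but not for Mrc2.

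Of the 6 Cd209 genes, Cd209b, Cd209d and Cd209g were lower in lean dendritic cells than in lean CD11c- macrophages, and Cd209a, Cd209c and Cd209e did not pass. Cd209g read 10.57 and 10.59 in CD11c- ATM and 2.96 and 3.68 in ATDC (-7.26 ± 0.97, adjusted p = 5.40e-05). Cd209b read 8.88 and 8.85 against 3.00 and 3.92 (-5.41 ± 0.55, adjusted p = 2.46e-06), and Cd209d 10.32 and 10.56 against 7.28 and 8.06 (-2.77 ± 0.76, adjusted p = 0.0263). For Cd209b and Cd209g 1 of the 2 ATDC arrays lay above its median. Cd209a read 8.84 and 8.68 against 8.69 and 8.39, Cd209c 7.09 and 6.90 against 6.81 and 6.96, and Cd209e 5.62 and 4.22 against 2.96 and 4.31, and in each the groups overlapped. In all, 9 of 36 members passed, 2 higher and 7 lower in ATDC, with 8.27% of all tested genes called (3.67% higher, 4.6% lower). The other lower ones were Clec5a, which fell by at least 2.98 (adjusted p = 0.000236), Clec4n (-3.04 ± 0.57, adjusted p = 0.00152), Clec2d (-1.14 ± 0.33), a ligand of an inhibitory NK cell receptor, and Cd302 (-1.02 ± 0.30). Clec4b2 was at least 0.57 higher and Clec4e 1.09 ± 0.31 higher in ATDC.

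Cd209b, Cd209g, Clec4n and Clec5a passed with any 1 of these 4 arrays left out. Cd209d, Clec2d and Clec4e missed the threshold without any 1 of the 4 arrays (up to 0.179, 0.232 and 0.211). Cd302 missed it without either ATM array or ATDC replicate 1 (up to 0.312), and Clec4b2 without ATM replicate 2 or ATDC replicate 1 (up to 0.112). Without ATM replicate 1, ATM replicate 2 or ATDC replicate 1, the counts were 5, 4 and 4. A fit of these 4 arrays alone lost Cd302, Clec2d, Clec4b2 and Clec4e. NK cell markers moved with this comparison: 9 of 10 were higher in ATDC, with summed levels of 11.1 to 11.4 against 7.19 to 7.73, as did 6 of 9 tested monocyte markers (11.6 against 9.83 to 10.3), and their part was not tested.

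In obese mice, dendritic cells differed from CD11c+ macrophages in 4 members, with 4.16% of all genes called (1.72% higher, 2.44% lower). Cd209a was higher, at 8.76, 8.63 and 7.86 against 5.39, 6.40 and 4.93 (2.84 ± 0.59, adjusted p = 0.00737), and so was Clec4g, at 5.78, 5.94 and 4.78 against 2.80, 4.21 and 3.54 (1.98 ± 0.40, adjusted p = 0.00517). Cd209g was lower, at 2.54, 4.88 and 1.99 against 6.50, 8.55 and 4.65 (-3.43 ± 0.79, adjusted p = 0.0144), with 1 overlapping array on each side. Clec5a was lower as well, at 2.09, 3.36 and 2.10 against 4.71, 5.57 and 3.79 (-2.18 ± 0.50, adjusted p = 0.0135). Clec4g passed with any 1 of the 6 arrays left out but not in a fit of these 6 alone. Without the 3 arrays whose marker lists stood apart, Clec4g (0.0585), Cd209g (0.0899) and Clec5a (0.127) missed the threshold. Cd209a missed without HFD CD11c+ ATM replicate 3 (0.0536) and when its rows were averaged, and Cd209g and Clec5a missed without CD11c+ ATM replicate 1 or 2 or ATDC replicate 1 or 3 (up to 0.0937 and 0.0887). Counts were 2 without CD11c+ ATM replicate 1 or 2, 7 without ATDC replicate 2, and 1 in a fit of these 6 arrays alone. NK cell markers were higher in 4 of 10 genes and macrophage markers lower in 4 of 12, and their part was not tested.

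Promoter windows of 3 Cd209 genes are shown because these genes had the 3 largest falls of the family between lean macrophages and dendritic cells. They come from RefSeq, build GRCm38.p6, at chr8:3926842-3927091 on the minus strand for Cd209b, chr8:3878500-3878749 on the minus strand for Cd209d and chr8:4134486-4134735 on the plus strand for Cd209g. Capitals mark matches to the same motifs.
Cd209b: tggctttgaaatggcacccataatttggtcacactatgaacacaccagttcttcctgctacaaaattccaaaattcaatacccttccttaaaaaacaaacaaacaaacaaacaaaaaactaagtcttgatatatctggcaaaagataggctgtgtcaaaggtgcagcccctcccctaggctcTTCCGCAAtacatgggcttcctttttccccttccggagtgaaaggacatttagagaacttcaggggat
Cd209d: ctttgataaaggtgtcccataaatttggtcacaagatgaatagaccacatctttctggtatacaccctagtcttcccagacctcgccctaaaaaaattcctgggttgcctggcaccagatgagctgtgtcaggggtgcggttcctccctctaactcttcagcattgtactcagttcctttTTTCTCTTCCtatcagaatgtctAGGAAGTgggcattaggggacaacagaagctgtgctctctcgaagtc
Cd209g: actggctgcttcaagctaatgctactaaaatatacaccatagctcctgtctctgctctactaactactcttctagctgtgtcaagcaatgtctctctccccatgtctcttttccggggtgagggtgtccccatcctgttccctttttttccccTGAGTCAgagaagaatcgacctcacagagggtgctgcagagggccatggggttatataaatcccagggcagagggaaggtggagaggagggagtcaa
Cd209b held a C/EBP match at -68 to -61, Cd209g an AP-1 match at -97 to -91, and Cd209d a PU.1 match at -47 to -41 and an ETS-IRF composite match at -70 to -61. The 3 windows shared no match. Of 33 members with a window, 5 held the ETS-IRF composite, in 7 of 36 windows (Clec2i and Clec7a have 2 overlapping windows each): Cd209d, Cd209e, Clec2i, Clec4a1 and Clec7a. It was present in 2.3% of all RefSeq windows of this length. PU.1 was in 2 member windows (7.69% of all windows) and AP-1 in 6 (6.75%). C/EBP was in 6 (9.56%) and the MAF site in 3 (3.81%). No enrichment was tested, and neighbouring Cd209 genes are near copies.

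Between the subsets split by CD11c in obese mice no member passed (0 of 36 by limma), where 0.00645% of all genes, a single gene, passed. Cd209b, Cd209d, Cd209e and Cd209g had an unadjusted limma p under 0.05, each lower in CD11c+ ATM. How many of all genes had such a p was not counted. For Cd209e, only the value of HFD CD11c- ATM replicate 2, 4.965, lay above its array median. Cd209b read 4.40, 6.29 and 4.31 in CD11c+ against 6.81, 7.77 and 7.20 in CD11c- ATM (-2.26 ± 0.45, adjusted p = 0.261). Replicate 2 was the highest array in both subsets for Cd209b, Cd209d, Cd209g and Mgl2, and without CD11c+ replicate 2, 1 member passed. After weight loss 2 members were lower in CD11c+ than in CD11c- ATM, with 1.34% of all genes called (0.691% higher, 0.652% lower). Clec4n read 3.97, 4.98 and 5.32 against 7.52 and 6.74 (-2.37 ± 0.52, adjusted p = 0.0298), and Clec4e differed by -1.25 ± 0.28 (adjusted p = 0.0317). Clec4n missed the threshold without CD11c+ replicate 1 or CD11c- replicate 1 (up to 0.168), and Clec4e without any array other than CD11c+ replicate 1 (up to 0.112), and both were lost in a fit of these 5 arrays alone and with array weights. Counts with 1 array left out were 1 in 4 cases and 0 without CD11c- replicate 1. In this comparison 5 of 9 mast cell markers were lower in CD11c+ ATM, and their part was not tested.

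**Figure D5:**
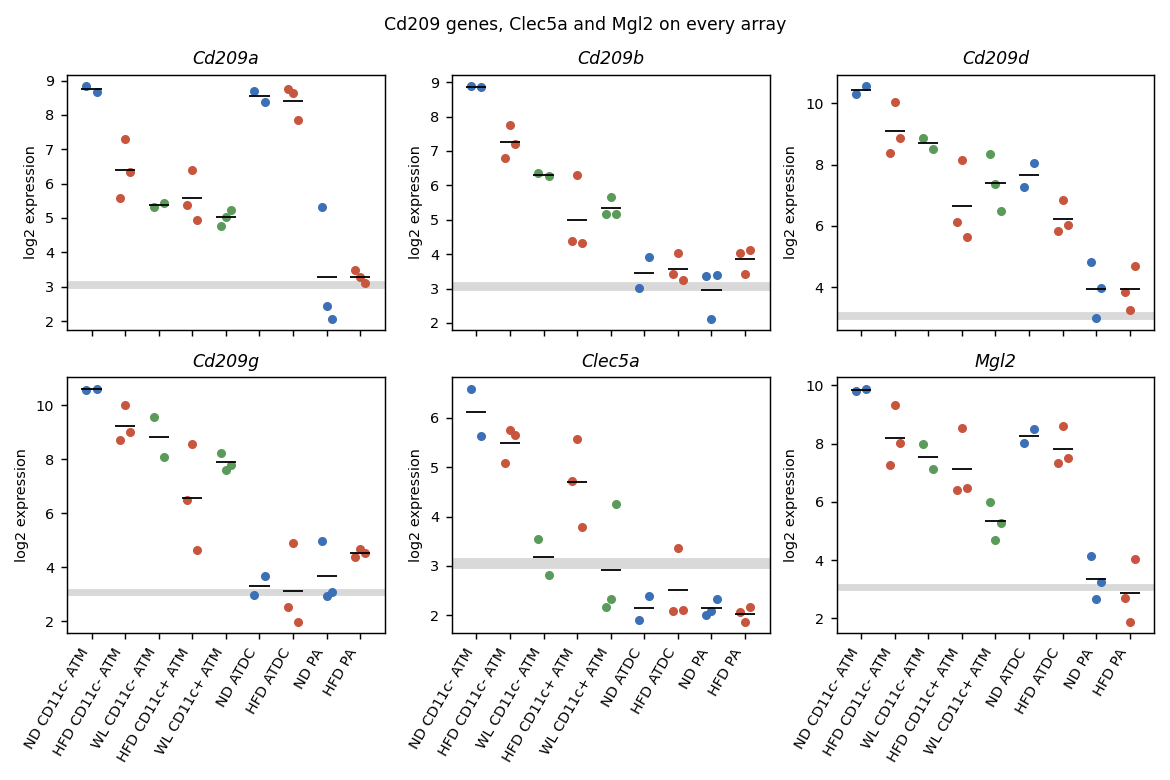
Log2 expression of Cd209a, Cd209b, Cd209d, Cd209g, Clec5a and Mgl2 on each array (dots, blue ND, red HFD, green WL) with group means (black lines) for the 9 groups; the grey band spans the array medians. Cd209g fell from a mean of 10.6 in lean CD11c- ATM to 3.32 in lean ATDC, whereas Cd209a was 8.76 and 8.54 there.

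Lean preadipocytes stood farthest from lean CD11c- macrophages, with 22 of 36 members called, 19 lower and 3 higher, against 23.4% of all tested genes (12.6% higher, 10.8% lower). The lower ones were 6 of 8 activating receptors, 4 of 5 tested Dcir family and related receptors, 6 of 7 of the Cd209 family with Clec4g, both Mgl2 and Clec10a, and Clec2i. Differences ran from Cd209g (-6.92 ± 0.88, adjusted p = 5.26e-06) to Clec4e, which fell by at least 0.79. Clec12a read 4.79, 2.63 and 2.49 in PA and 9.32 and 9.92 in ATM. The 3 higher ones were Clec3b (4.90 ± 0.59, adjusted p = 2.50e-06), Mrc2 (3.49 ± 0.50, adjusted p = 1.89e-05) and Clec11a, a growth factor for blood and bone progenitors, at 5.48, 4.83 and 5.39 against 3.63 and 3.11 (1.86 ± 0.51, adjusted p = 0.0102). Only Clec11a missed the threshold when 1 array was left out, ND CD11c- ATM replicate 2 (0.110). Among tested genes the median was -1.93 for members and -0.01 overall.

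Of the 36 tested members, 11 passed in none of the 11 comparisons: Cd209c, Clec14a, Clec16a, Clec18a, Clec1a, Clec1b, Clec2g, Clec2l, Clec2m, Clec4a4 and Clec4f. Clec2g, Clec2l and Clec2m belong to the Clr family, ligands of NK cell receptors. Clec2m read between 2.93 and 4.44 over the 24 arrays, and Clec2g and Clec2l lay above the median on only 3 and 4 arrays. Clec14a, an endothelial gene, lay above it on 6 arrays and reached 4.22 in ND PA, and Clec4f, known from liver macrophages, ranged from 2.76 to 4.35. Cd209a and Cd209c each had 2 probe rows that disagreed. The other Cd209a row was flat, with group means from 5.04 to 5.80. For Cd209c the row used was flat, with group means from 6.88 to 7.85, and the other row was not. Cd209 genes are near copies of each other, as are the Clec4a and Clec4b genes, and without the probes' sequences the signal that copies share could not be separated.

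Of 17 adaptors and kinases downstream of the receptors, 15 were tested. In lean PA against CD11c- ATM 10 were lower, among them Syk (-4.62 ± 0.44), Fcer1g (-5.15 ± 0.53) and Card9 (-2.71 ± 0.32), and Src was higher, beside 23.4% of all genes called. In HFD PA Fcer1g (2.67 ± 0.47, adjusted p = 0.00296) and Tyrobp (2.56 ± 0.50, adjusted p = 0.00695), the adaptors of Clec4e and Clec5a, were higher than in ND PA, beside 2.59% of all genes called. Clec4e and Clec5a themselves lay under the array medians in HFD PA. The macrophage list summed to 9.67 to 11.8 on these HFD arrays against 7.92 to 9.30 with ND, and its part was not tested. In WL against ND CD11c- ATM Malt1 (1.62 ± 0.36) and Src (1.48 ± 0.43) were higher and none lower, beside 6.18% of all genes called. In lean ATDC against CD11c- ATM Malt1 was higher and Nlrp3 lower, beside 8.27%. None passed in the other diet, weight loss or subset comparisons, and none of the 3 phosphatases that inhibitory receptors recruit passed in any comparison but lean PA against CD11c- ATM, where Inpp5d and Ptpn6 were lower.

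Other genes with a C-type lectin domain, outside the symbol rule, were counted from a list of 29, of which 20 were tested. In WL against ND CD11c- ATM, where 6.18% of all genes passed, 6 were higher, led by Cd248 (3.11 ± 0.65, a stromal receptor) and Cd69 (at least 1.88, an activation marker of lymphocytes), and Asgr2 was lower (-2.51 ± 0.51). In HFD PA Mrc1 (2.83 ± 0.55, the mannose receptor, also in the macrophage list) and Cd93 (2.63 ± 0.42) were higher. In lean ATDC against CD11c- ATM, where 8.27% of all genes passed, 7 were higher, led by the NK cell receptor genes Klrd1 (5.67 ± 0.63) and Klrk1 (4.48 ± 0.64), and 5 lower, led by Layn (-4.26 ± 0.61) and Colec12 (-4.19 ± 0.55). In HFD ATDC against HFD CD11c+ ATM (4.16% of all genes) 3 were higher, Klrd1 (3.85 ± 0.51), Klrk1 (3.66 ± 0.52) and the dendritic cell receptor Ly75 (3.16 ± 0.32), and 4 lower, led by Layn (-2.53 ± 0.50). In WL against HFD CD11c- ATM (2.96%) Klrb1c (2.13 ± 0.43), Klrk1 (2.41 ± 0.58) and Selp were higher. In lean PA against CD11c- ATM (23.4%) 5 were higher, led by Vcan (5.38 ± 0.56), and 3 lower, led by Mrc1 (-6.80 ± 0.61).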

How the data were processed

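The values were normalized log2 expression values deposited by the authors for 41345 probe rows on 24 arrays. Per the submitters' processing notes, RMA, oligo and limma were used, with no versions or settings. Per the labels' protocols, RNA was amplified to cDNA, labelled with biotin and hybridised to 1 array per sample. RMA removes shifts shared by all genes of an array, and the array medians lay between 2.96 and 3.15. Depth has no meaning for arrays, and their number limits the precision.

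Groups came from the sample titles. Rows were named from the platform annotation (23521 with 1 symbol, 1814 with several, 16010 not named here); of several rows, the one with the highest mean over all arrays was used. Differences were tested two-sided with limma 3.58.1 (lmFit, eBayes) in R 4.3.3, in 1 fit of 24 arrays with a mean per group and 15 residual degrees of freedom. P-values were adjusted over 15496 tested genes per comparison (11 comparisons and 3 interactions), threshold 0.05. The code was tested on simulated data. "At least" gives the difference down to the array median where no array of the lower group lay above it, a choice made after seeing the data. A summed level is log2 of the sum of a marker list's linear values. With 1 of 2 arrays left out, the lone array is assumed to vary like the other groups. Members and lists were chosen with earlier results of these data known. Alternatives were the filter, the row rule, array weights, variance prior, quantile scaling, the arrays in the fit, a replicate block and leaving out arrays. Promoter windows are RefSeq's and were found for 33 members. Scanner files, protein sequences and a genome were not used here.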

Additional observations from a re-analysis of the deposited data

Results flagged for a closer look

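Probe rows outside the member rule carried signal. The second row of Cd209c had a mean of 6.81 in ND CD11c- ATM (6.52 and 7.10 on its 2 arrays), 5.60 in ND ATDC, 5.34 in HFD ATDC, 4.45 in HFD CD11c- ATM and 2.34 to 3.18 elsewhere, whereas the row used stayed between 6.88 and 7.85. A row annotated to both Clec9a and Clec1b had a mean of 9.23 in HFD ATDC and 9.20 in ND ATDC, and of 2.86 to 5.04 in the other groups. Clec9a is known as a receptor of cross-presenting dendritic cells, and the row of Clec1b alone did not exceed 3.83 on any array. A row annotated to both Cd209f and Cd209g had a mean of 10.9 in ND CD11c- ATM, 9.96 in HFD CD11c- ATM, 9.66 in WL CD11c- ATM and 5.44 to 9.18 elsewhere. These rows entered no test. Groups of 2 or 3 arrays are too small for an outlier test.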

How the results depend on the processing

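Of 55 member calls in the 11 comparisons, 30 kept their call with any 1 array left out, and 0 reversed in any setting. Members called with 1 array left out ranged from 0 to 4 in HFD against ND CD11c- ATM, 0 to 0 in ATDC and 2 to 8 in PA. They ranged from 0 to 1 in HFD CD11c+ against CD11c- ATM and 0 to 1 in the same comparison after WL. For WL the ranges were 0 to 3 against HFD in CD11c+ ATM, 1 to 3 against HFD in CD11c- ATM and 2 to 7 against ND. They were 2 to 7 for HFD ATDC against CD11c+ ATM, 4 to 6 for ND ATDC and 21 to 23 for ND PA against ND CD11c- ATM. Interactions gave 0 to 5 for PA and 0 to 0 for the other two. Most calls kept in every leave-out were of lean PA against lean CD11c- ATM. Among diet and weight loss calls, only Clec12a and Clec4d in PA and Clec4e in WL CD11c- ATM, against HFD and against ND, were kept. Fits of only the groups compared kept 35 of the 55 calls. They called 0 in HFD against ND CD11c- ATM, 2 in PA, 0 in WL against HFD in either ATM subset, 0 in WL CD11c+ against CD11c- ATM and 1 in HFD ATDC against CD11c+ ATM, with fewer arrays behind the spread. Array weights called 8 in PA, 1 in HFD CD11c+ against CD11c- ATM, 2 and 1 in WL against HFD CD11c+ and CD11c- ATM, 0 in WL CD11c+ against CD11c- ATM, 7 in HFD ATDC against CD11c+ ATM and 5 in the PA interaction. Quantile scaling called 7 in PA and 2 in WL against HFD CD11c+ ATM, and the trend and robust prior also 2 there. Without HFD CD11c- ATM replicate 3, HFD ATDC replicate 1 and ND PA replicate 1, whose marker lists stood apart (chosen after seeing the data), the counts were 0 in HFD against ND CD11c- ATM, 8 in PA, 2 in HFD ATDC against CD11c+ ATM and 4 in the PA interaction. The test without a filter ended no call, and under the stricter filter Clec4b2 was no longer tested, which left 8 members called in ND ATDC against ND CD11c- ATM. Averaging rows ended 2, both of Cd209a. The causes were not tested. Same-numbered arrays deviated together with r from -0.13 to 0.25 over 26 pairs, and the numbers were not taken as pairs. Many of these pairs join different diets and cannot share mice. The highest r was that of replicate 2 of HFD CD11c+ and CD11c- ATM. Whether samples of the same diet came from the same mice cannot be told from these values. With the replicate block, which fits 1 shift per number over all diets, 2 members were called in WL against HFD CD11c+ ATM. It called 1 in WL CD11c+ against CD11c- ATM, where Clec4e was lost (adjusted p = 0.0503), and no other count moved by more than 1.5 times.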
